A study of Mus musculus with 8 samples.

Results

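The heat shock genes described here are 10 rows of the deposited gene table, taken by gene symbol from its 29442 rows: Hspa1a, Hspa1b, Hspa8, Hsp90aa1, Hsp90ab1, Dnajb1, Hsph1, Hspb1, Hspd1 and Hspe1. They were measured by RNA-seq of the hippocampus, per the methods its ventral portion, using the left or right portion from each of 8 female C57BL/6J mice aged 6 to 8 weeks. In 4 mice DHEA (dehydroepiandrosterone, an adrenal precursor of androgens) had been injected under the abdominal skin at 30 mg/kg/day for 21 days, and 4 mice had received sesame oil, the vehicle, by the same route and for the same time. All mice had gone through the open field, forced swim and tail suspension tests before dissection, so no group without handling and swimming was compared. Libraries are named by the mouse number in the sample titles, mice 3, 4, 7 and 11 for DHEA and mice 5, 9, 10 and 16 for sesame oil, and neither a batch nor a cage or pairing is labelled. Total counts on genes ran from 35748416 to 38038361 in the DHEA libraries and from 31483772 to 35418297 in the sesame oil libraries, and 3 counts correspond to less than 0.1 CPM (counts scaled to a library of 1000000) in every library. All 10 genes had at least 1 count and were tested, among 27612 genes.

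Markers of the labelled tissue were present, with Snap25 of neurons at a mean of 1880 CPM and Zbtb20 of the hippocampus at 469 CPM. The libraries of mice 3 and 4 stood apart from the rest, at 21.8 and 35.6 on the first principal component (33.4% of the variance) against -12.7 to -3.62 for the other 6 libraries. The heat shock genes and the counts of each gene list were also fitted without them. All directions follow the treatment labels of the samples. The fold changes in the study's own gene table have the opposite sign to those labels. If the labels were exchanged, every direction given here would turn.

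Heat shock proteins are chaperones, which bind unfolded or partly folded proteins and let them fold or be refolded. Hsp70 proteins work with J-domain partners such as Dnajb1 and with nucleotide exchange factors such as Hsph1, while Hsp90 proteins act on late folding steps of kinases and of steroid receptors, the androgen and glucocorticoid receptors among them. Under heat or other protein-damaging stress the transcription factor HSF1 binds heat shock elements, which are repeats of GAA and of its complement TTC, and switches on inducible members such as Hspa1a, Hspa1b, Hspb1 and Dnajb1. Hspa8 and Hsp90ab1 are mostly constitutive and are abundant in neurons, and Hspd1 with Hspe1 forms the folding chamber of the mitochondrial matrix.

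The stretches of promoter below are shown because repeats of GAA and TTC are what HSF1 is known to recognise. A match was GAANNTTC or TTCNNGAA, searched in the 250 bases before each annotated start. Each of these is its own reverse complement, so both strands are covered, and neighbouring matches may overlap. Sequences came from a table of RefSeq promoters (build GRCm38.p6), in which 7 of the 10 genes were matched, and none was used here for Hspa8, Hsp90aa1 and Hsp90ab1. Each sequence runs 5′ to 3′ on the strand of its gene, with the matched GAA and TTC in capitals.
Hspa1a and Hspa1b: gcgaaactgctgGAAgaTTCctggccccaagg
Hsph1: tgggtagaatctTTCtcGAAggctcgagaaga
Hspb1: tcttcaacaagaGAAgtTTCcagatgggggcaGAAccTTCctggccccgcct
Hspd1: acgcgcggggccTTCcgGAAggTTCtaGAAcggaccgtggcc
Hspe1: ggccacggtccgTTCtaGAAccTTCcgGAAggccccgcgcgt

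The Hspa1a stretch lies at chr17:34972241-34972272 and the identical Hspa1b stretch at chr17:34959323-34959354, both on the minus strand. The Hsph1 stretch lies at chr5:149636350-149636381 on the minus strand, and the Hspb1 stretch at chr5:135887790-135887841 on the plus strand. A match was found before 6 of the 7 genes. Over all 32851 windows of this length the share with a match was 12.8%. That share counts windows and not genes, and Dnajb1, Hsph1 and Hspd1 had 2 windows each. Dnajb1 held no match in its 2 windows. At Hspd1 and Hspe1 the matches overlapped into a run of alternating units, a form found in 0.466% of all windows. That run is the same stretch of DNA read on both strands, chr1:55088047-55088088, since the 2 genes are transcribed away from each other from starts 216 bases apart. Their annotated promoter sequences, which run past the start and are longer than the 250 bases searched, share 285 of 300 bases. This holds for the second of the 2 annotated Hspd1 starts, and the window of the first had no match. The promoters of Hspa1a and Hspa1b were identical at 247 of 250 bases. A match is a run of letters and not a measured binding site, and no binding was measured in these samples.

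Levels were compared between genes per length, as the deposited FPKM (fragments per kilobase of gene length and per 1000000 counts). Hsp90ab1 had a mean of 641 ± 33.6 FPKM (SD, n = 8), rank 22 of 29442 genes, and Hspa8 628 ± 55.6 FPKM, rank 23. Hsp90aa1 followed at 375 ± 36.6 FPKM, then Hspd1 at 64.3 ± 4.55, Hspe1 at 59.5 ± 4.67 and Hsph1 at 50.1 ± 5.51 FPKM. The lowest levels were those of Dnajb1 at 13.4 ± 1.71, Hspb1 at 4.34 ± 1.48, Hspa1b at 3.05 ± 0.69 and Hspa1a at 2.32 ± 0.30 FPKM, rank 10456. The level of Hspa1a and Hspa1b together was 0.679% to 1.04% of that of Hspa8 in FPKM. Neighbours in this order had overlapping ranges over the 8 libraries for Hsp90ab1 and Hspa8, for Hspd1 and Hspe1, for Hspe1 and Hsph1, for Hspb1 and Hspa1b, and for Hspa1b and Hspa1a. The ranges did not overlap between Hspa8 and Hsp90aa1, Hsp90aa1 and Hspd1, Hsph1 and Dnajb1, or Dnajb1 and Hspb1.
The 10 genes took 0.411% to 0.482% of all counts in the DHEA libraries and 0.438% to 0.49995% in the sesame oil libraries (two-sided exact permutation test, p = 0.343). Of these counts, Hspa8, Hsp90aa1 and Hsp90ab1 held between 86.7% and 87.7%, so a sum over the group is mainly a measure of those abundant genes.

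The comparison asks whether chronic DHEA went with another level of chaperone transcripts in this tissue. None of the 10 genes passed edgeR's quasi-likelihood test at a Benjamini-Hochberg adjusted p under 0.05 over all genes tested, and neither did any other gene (0 of 27612, 0%). The same count was 0 of 10 with DESeq2, which called 153 genes in all (0.554%). At an unadjusted p under 0.05, edgeR had 2571 genes (9.31%), 1332 higher (4.82%) and 1239 lower (4.49%) in the DHEA libraries, and 1055 higher and 1549 lower when limma was run on log2(FPKM + 1). The study's own call rule asks for an unadjusted p under 0.05 together with a fold of 2 or more, or of 0.5 or less, and 442 genes (1.6%) but 0 of the 10 met it. Of the heat shock genes, 8 had a lower and 2 a higher fitted level in the DHEA libraries, with a median log2 fold change of -0.12 against 0.01 over all genes tested. An unadjusted p under 0.05 was found for 2 of the 10, Dnajb1 and Hspb1, both lower. The groups overlapped in CPM for all 10 genes, whereas 2.42% of all genes were higher and 2.62% lower without overlap. The counts for the 10 heat shock genes concern very few genes and are read only as description. A p above the threshold does not show equal levels, so 95% confidence intervals of the fold change are given. RNA came from whole tissue, so fewer cells of a type and less RNA per cell cannot be told apart.

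**Figure D1:**
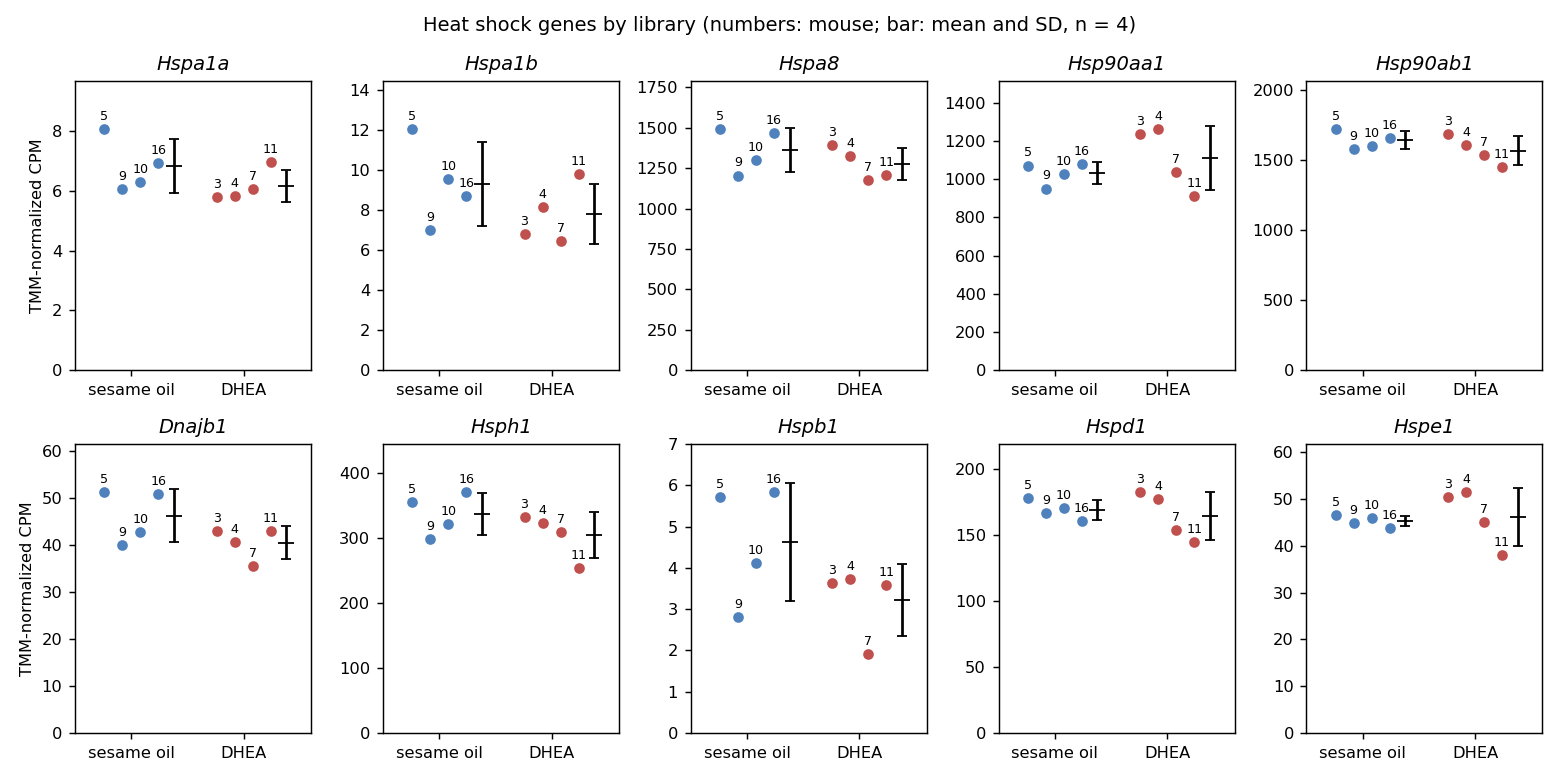
TMM-normalized CPM (y axis, from 0) of each heat shock gene in the sesame oil libraries (blue) and the DHEA libraries (red), with the mouse number above each point and black bars for mean ± SD (n = 4). The groups overlap in each of the 10 panels, and mice 3 and 4 are the highest points for Hsp90aa1 and Hspe1.

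Among the Hsp70 genes, Hspa8, the constitutive form, was counted at 1391, 1326, 1179 and 1209 CPM in DHEA mice 3, 4, 7 and 11 and at 1491, 1205, 1299 and 1466 CPM in sesame oil mice 5, 9, 10 and 16. Mice 5 and 16 were above all DHEA libraries, and mouse 9 lay between mice 7 and 11. The means were 1276 ± 99.8 and 1365 ± 137 CPM (SD, n = 4 each), the log2 fold change was -0.10 with a standard error of 0.08 (edgeR adjusted p = 0.666), and the interval reached from 0.835- to 1.05-fold.
Hspa1a, a stress-induced Hsp70, had 5.79, 5.83, 6.08 and 6.95 CPM in the DHEA libraries and 8.06, 6.05, 6.28 and 6.92 CPM in the sesame oil libraries, in the same order of mice. Its near copy Hspa1b had 6.81, 8.13, 6.46 and 9.80 CPM against 12.04, 6.996, 9.53 and 8.73 CPM. For both genes mouse 5 was highest, and mouse 11 was the highest of the DHEA libraries. The log2 fold changes were -0.15 (standard error 0.14, adjusted p = 0.675 by edgeR) for Hspa1a and -0.26 (standard error 0.17, adjusted p = 0.644) for Hspa1b, with intervals of 0.734- to 1.11-fold and 0.657- to 1.07-fold. These genes are near-identical, and the longest Hspa1b transcript shares 40.5% of its stretches of 150 bases with Hspa1a, so reads could be divided or dropped between them. Their summed count gave 12.6, 14.0, 12.5 and 16.8 CPM against 20.1, 13.0, 15.8 and 15.6 CPM, with a log2 fold change of -0.21 ± 0.13 (standard error, edgeR adjusted p = 0.641).

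The 2 cytosolic Hsp90 genes had fitted differences of opposite sign. Hsp90aa1, the stress-inducible form, had 1235, 1261, 1036 and 914 CPM in DHEA mice 3, 4, 7 and 11 and 1071, 951, 1026 and 1078 CPM in sesame oil mice 5, 9, 10 and 16. Mice 3 and 4 were above all other libraries and mouse 11 was below all of them, so the DHEA libraries were the more spread, at 1111 ± 166 CPM against 1032 ± 58.5 CPM (SD, n = 4 each). The log2 fold change was 0.11 with a standard error of 0.09 (edgeR adjusted p = 0.666, interval 0.948- to 1.22-fold). Hsp90ab1, the constitutive form, had 1687, 1606, 1539 and 1449 CPM against 1723, 1578, 1605 and 1663 CPM. It had the smallest spread of the 10 genes, a coefficient of variation of 5.43% over the 8 libraries, and mouse 11 was again lowest. Its log2 fold change was -0.06 with a standard error of 0.06 (edgeR adjusted p = 0.692) and the interval was 0.870- to 1.05-fold.
The ratio of Hsp90aa1 to Hsp90ab1 in FPKM was 0.644, 0.691, 0.592 and 0.555 in the DHEA libraries against 0.547, 0.530, 0.562 and 0.570 in the sesame oil libraries. Mice 3, 4 and 7 were above every sesame oil library, and mouse 11 was within their range. In 36.2% of its 150-base stretches the longest Hsp90aa1 transcript is shared with other genes, mostly Gm12346. The same share was 22.4% for Hspa8, mostly with Gm26825, and 18.6% for Hspd1, with Hspd1-ps3, and 0 for Hsp90ab1, Dnajb1, Hsph1 and Hspe1.

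Of the 2 partners of Hsp70 among the 10 genes, Dnajb1 had an unadjusted p under 0.05 and Hsph1 did not. Dnajb1, the J-domain protein that brings clients to Hsp70 and drives its ATP cycle, had 42.9, 40.5, 35.4 and 42.9 CPM in DHEA mice 3, 4, 7 and 11 and 51.3, 40.02, 42.7 and 50.9 CPM in sesame oil mice 5, 9, 10 and 16. Mice 5 and 16 were high, mouse 7 was low, and the other 5 libraries lay between 40.02 and 42.9 CPM with the groups mixed. The log2 fold change was -0.19 with a standard error of 0.09 (unadjusted p = 0.0472, adjusted p = 0.531 by edgeR, interval 0.768- to 0.998-fold), and the exact permutation test of CPM gave p = 0.257. Without mouse 5, mouse 7 or mouse 16 the unadjusted p from edgeR was 0.171, 0.152 or 0.140.
Hsph1 (Hsp110), which exchanges the nucleotide of Hsp70, had 333, 324, 310 and 254 CPM against 356, 299, 322 and 371 CPM. Mouse 11 was low and mice 5 and 16 were again high, with a log2 fold change of -0.14 ± 0.08 (standard error, edgeR adjusted p = 0.606, interval 0.801- to 1.02-fold).

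Hspb1 (Hsp27), a small heat shock protein that holds unfolding proteins without ATP, was the member with the largest fitted difference and the largest coefficient of variation, 33.9%. Its counts were low, 69 to 189 reads per library, or 3.63, 3.73, 1.91 and 3.59 CPM in DHEA mice 3, 4, 7 and 11 and 5.70, 2.82, 4.12 and 5.84 CPM in sesame oil mice 5, 9, 10 and 16. Mouse 7 was below every other library, and mouse 9 was below the remaining 3 DHEA libraries. The log2 fold change was -0.52 with a standard error of 0.24 (unadjusted p = 0.0476, adjusted p = 0.531 by edgeR, interval 0.488- to 0.996-fold), and the exact permutation test of CPM gave p = 0.2. Without mouse 5, 7 or 16 the value was -0.40, -0.34 or -0.40, and edgeR's unadjusted p was 0.149, 0.148 or 0.151. In 36.6% of its 150-base stretches the Hspb1 transcript is shared, all with Hsp25-ps1, and the rule for reads that map to both is not given in the sources used here.

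The mitochondrial pair was close to equal in the group means. Hspd1 (Hsp60), the chamber, had 182, 177, 153 and 145 CPM in DHEA mice 3, 4, 7 and 11 and 178, 166, 170 and 160 CPM in sesame oil mice 5, 9, 10 and 16. Hspe1 (Hsp10), its lid, had 50.4, 51.5, 45.02 and 37.97 CPM against 46.5, 44.9, 45.9 and 43.9 CPM. The DHEA libraries took both ends of the range for Hspe1, with mice 3 and 4 above and mouse 11 below all sesame oil libraries, and their SD was 6.19 CPM against 1.15 CPM. For Hspd1, mouse 3 was highest, followed by mouse 5 and mouse 4, and mice 7 and 11 were below all sesame oil libraries. The log2 fold change was -0.04 ± 0.07 for Hspd1 (standard error, edgeR adjusted p = 0.876, interval 0.876- to 1.08-fold) and 0.03 ± 0.09 for Hspe1 (adjusted p = 0.922, interval 0.900- to 1.16-fold), and the sign for Hspe1 turned under 6 of the 19 alternatives run. The ratio of Hspe1 to Hspd1 in FPKM stayed between 0.881 and 0.990 over the 8 libraries.

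The fitted sign of 2 genes turned without the libraries of mice 3 and 4, and that of Hspe1 also turned under other settings that kept them. For Hsp90aa1 they were 1.27 and 1.29 times the mean of DHEA mice 7 and 11 in CPM, and for Hspe1 1.21 and 1.24 times. Without both libraries all 10 genes had a lower fitted level in the remaining DHEA libraries, and Hsp90aa1 (log2 fold change -0.09) and Hspe1 (-0.13) turned sign. An unadjusted p under 0.05 was then found for 6 of the 10 rather than 2, all lower, against 7.89% of all genes in that fit and 3.89% lower. The log2 fold changes and unadjusted p from edgeR were -0.19 and 0.00569 for Hspd1, -0.27 and 0.0110 for Hsph1, -0.14 and 0.0135 for Hsp90ab1, -0.20 and 0.0198 for Hspa8, -0.75 and 0.0324 for Hspb1, and -0.24 and 0.0447 for Dnajb1. Hspa1a (-0.07) and Hspa1b (-0.20) did not reach that threshold. The smallest adjusted p among the 10 was 0.451 by edgeR in that fit, which rests on 2 DHEA libraries. Leaving out 1 library at a time gave between 0 and 4 genes at an unadjusted p under 0.05. There were 0 without mouse 5, 7 or 16, in fits where 6.53%, 13.4% and 7.5% of all genes were at this threshold. There were 2 without mouse 10 (all genes 7.48%), 3 without mouse 3 (7.08%) or mouse 4 (7.26%), and 4 without mouse 9 (8.25%) or mouse 11 (11.9%). Without mouse 11, 1 of the 4 was higher, Hsp90aa1, with a log2 fold change of 0.19 (unadjusted p = 0.0216, adjusted p = 0.321 by edgeR).

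**Figure D2:**
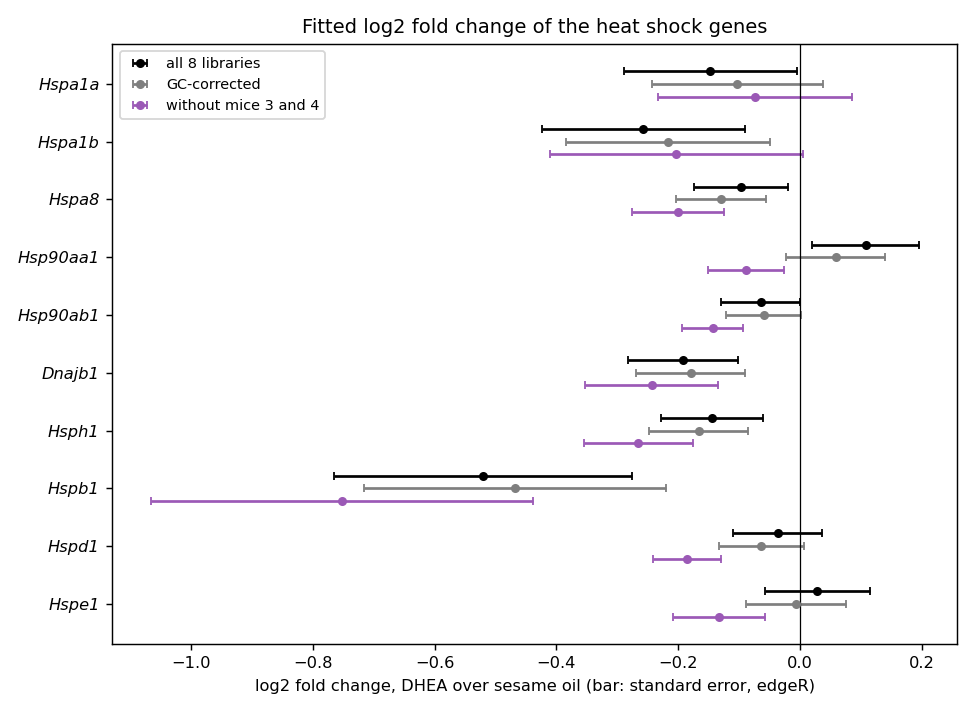
Log2 fold change of DHEA over sesame oil (x axis) for each heat shock gene, with bars of 1 standard error from edgeR, for all 8 libraries (black), after a correction for GC content (grey) and without mice 3 and 4 (purple). Hsp90aa1 and Hspe1 move from above 0 to below 0 without mice 3 and 4, and Hspe1 also lies just below 0 after the GC correction.

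Across the libraries the 10 genes did not move as 1 block. Mouse 5 was highest for 5 of the genes, mice 4 and 16 for 2 each and mouse 3 for 1, while mouse 11 was lowest for 5, mouse 7 for 4 and mouse 3 for 1. Over the 45 pairs of genes, Pearson's r of log2(CPM + 0.5) in the 8 libraries ran from -0.45 to 0.97 with a median of 0.58, with 10 pairs above 0.8 and 6 below 0. These values describe 8 libraries that share their normalization and, in part, their treatment. With the group means subtracted the median was 0.47, with 13 pairs above 0.8 and 11 below 0.
The highest r was that of Dnajb1 with Hspb1, 0.97 (Spearman's rho 0.76), and 0.92 without the 2 libraries farthest from the median of Dnajb1. Hsp90ab1 with Hsph1 had r = 0.92 (rho 0.90), which was 0.74 without the 2 farthest libraries. Hspd1 with Hspe1 had r = 0.89 (rho 0.86), which was 0.84 without the 2 farthest libraries. Hsp90aa1 with Hspe1 had r = 0.88 (rho 0.74), which was 0.72 without them. The lowest r was that of Hspa1a with Hspe1, -0.45. Hspa1a, Hspa1b, Dnajb1 and Hspb1 had high values in mouse 5 and not in mice 3 and 4, whereas Hsp90aa1 and Hspe1 had their highest values in mice 3 and 4. Hspa8 had r above 0.8 with Dnajb1 and Hspb1 as well as with Hsph1 and Hsp90ab1. Without the 2 farthest libraries these values were 0.58, 0.69, 0.64 and 0.798.

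**Figure D3:**
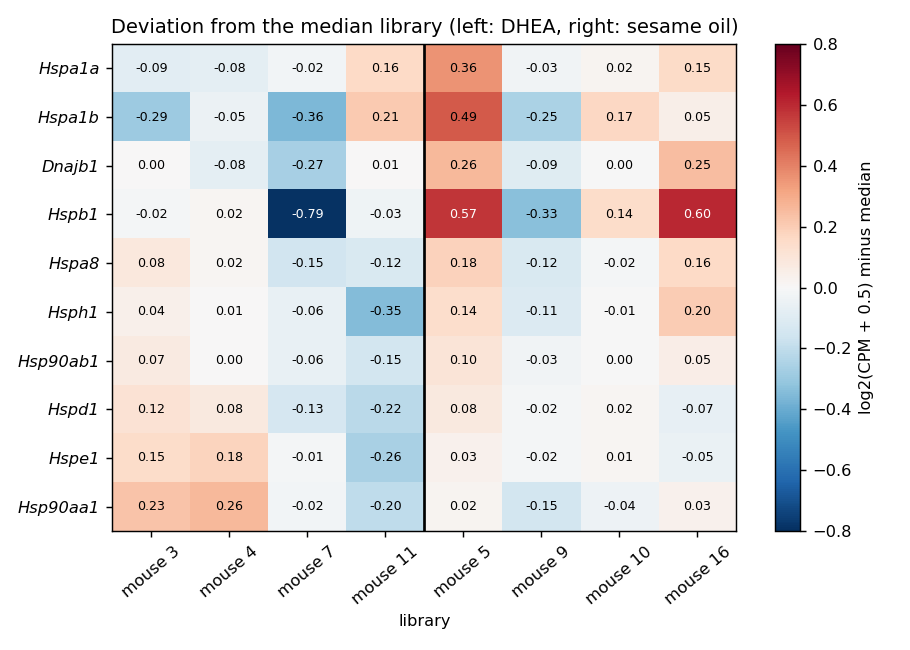
Log2(CPM + 0.5) of each heat shock gene (rows) in each library (columns, DHEA to the left of the line) minus the median of that gene over the 8 libraries, red above and blue below it. Hspb1 has its lowest value in mouse 7 and its highest in mice 5 and 16, and Hsp90aa1, Hspd1 and Hspe1 are above the median in mice 3 and 4 and lowest in mouse 11.

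**Figure D4:**
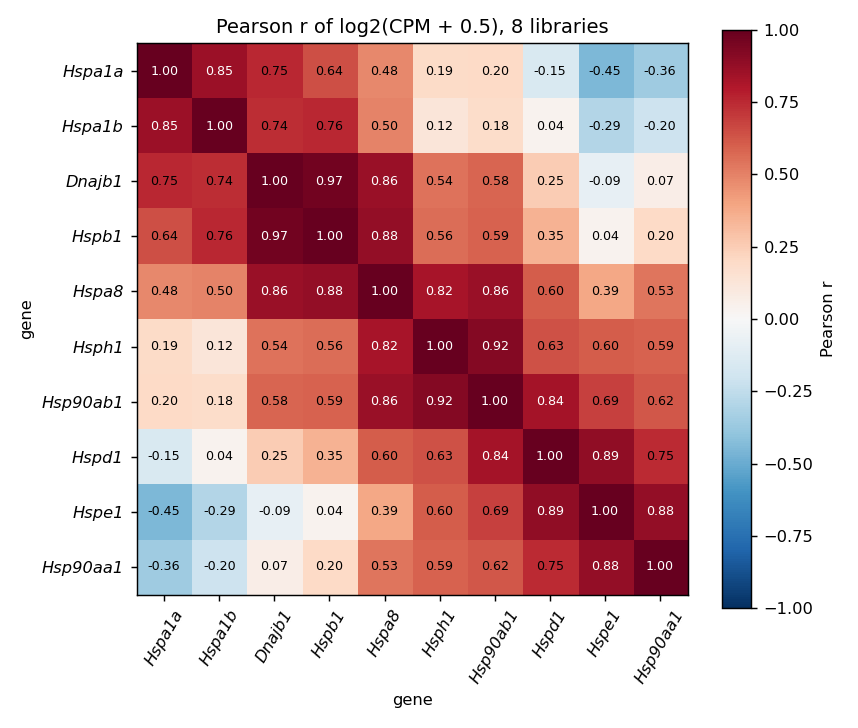
Pearson's r of log2(CPM + 0.5) over the 8 libraries for each pair of heat shock genes (both axes), red for positive and blue for negative values. The lower right corner holds Hspd1, Hspe1 and Hsp90aa1 (Hspd1 with Hspe1 0.89), and the upper left corner the genes that follow Dnajb1.

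Among the 12779 other genes counted at 100 or more on average, those whose profile over the 8 libraries was most like that of Dnajb1 were Dnajb4 (r = 0.97), another J-domain gene, then Ipo8 (0.97), Hspa5 (0.97), Hspb1 (0.97) and Upf2 (0.96). Hspa5 is BiP, the Hsp70 of the endoplasmic reticulum (ER). Those most like Hspd1 were Ptpra (r = 0.97), Tpst1 (0.97), Lxn (0.97), Cdc34 (0.96) and Atf2 (0.96), none of which is a chaperone gene. With the 2 libraries farthest from the median of Dnajb1 or Hspd1 left out, r stayed between 0.88 and 0.97 for all 10 of these pairs. The highest of so many coefficients over 8 libraries will be high in any table, and these are given as a description.

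The other genes of the chaperone system were described by lists. Of 75 other chaperone, co-chaperone and HSF genes, 1 was higher and 5 lower at an unadjusted p under 0.05 (8%, against 9.31% of all genes tested and 15.7% of the 12780 genes counted at 100 or more on average), and their median log2 fold change was 0.01. None had an adjusted p under 0.05 by edgeR. Without mice 3 and 4, 0 were higher and 22 lower at an unadjusted p under 0.05 (29.3%, against 3.89% of all genes lower in that fit), and the smallest adjusted p was 0.396. Of these, 6 were J-domain genes, 7 co-chaperones, 6 genes of the chaperonin and prefoldin, 2 other Hsp70 and Hsp110 genes and 1 small heat shock gene, with 0 among the HSF and the other mitochondrial genes. In that fit the values were -0.20 for Dnajb5, -0.13 for Dnajc7, -0.65 for Chordc1 and -0.25 for Stip1.
Among the 6 HSF factors and regulators, Hsf1 itself, which encodes the main heat shock transcription factor, had 20.3, 19.4, 23.1 and 25.5 CPM in DHEA mice 3, 4, 7 and 11 and 27.9, 26.0, 27.0 and 28.0 CPM in sesame oil mice 5, 9, 10 and 16. Every DHEA library was below every sesame oil library, as for 2.62% of all genes, though mouse 11 came close to mouse 9. The lowest were mice 3 and 4. Hsf1 was the only gene of the 6 at an unadjusted p under 0.05 (16.7%, against 9.31% of all genes tested). The log2 fold change was -0.30 with a standard error of 0.09 (unadjusted p = 0.0045, adjusted p = 0.306 by edgeR), and without mice 3 and 4 it was -0.17 (unadjusted p = 0.0580, adjusted p = 0.647). Hsf2bp, with the highest log2 fold change of that list (1.07), was higher in the DHEA libraries, also without overlap but at very low levels. In that direction 2.42% of all genes were without overlap. Hsf2bp had 0.135 to 0.305 CPM against 0.0561 to 0.119 CPM (edgeR adjusted p = 0.638).
Of 13 other J-domain genes, 2 were lower and 0 higher at an unadjusted p under 0.05 (15.4%, against 4.49% of all genes lower). Among genes counted at 100 or more on average, 15.7% were at this threshold in either direction. Both J-domain genes were without overlap in CPM, as were 2.62% of all genes in that direction. Dnajb5 had 97.4 to 114 CPM against 122 to 133 CPM (log2 fold change -0.29 ± 0.07, standard error, edgeR adjusted p = 0.230), and Dnajc7 133 to 142 CPM against 146 to 155 CPM (-0.14, adjusted p = 0.465). The highest of that list was Dnajb14 (0.08, adjusted p = 0.666).
Of 16 co-chaperones of Hsp70 and Hsp90, 2 were lower and 0 higher at an unadjusted p under 0.05 (12.5%, against 4.49% of all genes lower). The share in either direction was 15.7% among genes counted at 100 or more on average. Chordc1, a co-chaperone of Hsp90 and itself a heat shock gene, had 60.03, 57.7, 64.3 and 59.3 CPM in the DHEA libraries and 144, 63.8, 105 and 73.5 CPM in mice 5, 9, 10 and 16. Mice 5 and 10 were far above the rest and mouse 9 was within the DHEA range (log2 fold change -0.68 ± 0.17, standard error, edgeR adjusted p = 0.240). Stip1, which links Hsp70 to Hsp90, had 138 to 166 CPM against 148 to 188 CPM (-0.17, adjusted p = 0.531), and the highest of the list was Ptges3 (0.15, adjusted p = 0.553).
In the remaining lists 1 gene had an unadjusted p under 0.05: Vbp1, a prefoldin subunit, at 0.17 (edgeR adjusted p = 0.503, and 0.02 without mice 3 and 4), among 14 genes of the cytosolic chaperonin and prefoldin, where Pfdn6 was lowest (-0.08). The other Hsp70 and Hsp110 genes had 0 of 9 (Hspa2 -0.11 to Hspa1l 0.34), the other small heat shock genes 0 of 7 (Hspb7 -1.17, at no more than 0.296 CPM, to Hspb6 0.20) and the other mitochondrial chaperones and proteases 0 of 10 (Hscb -0.06 to Clpp 0.12).

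Chaperones of the ER, which serve another compartment, were given the same description. Of 14 genes, 9 were lower and 0 higher at an unadjusted p under 0.05 (64.3%, against 4.49% of all genes lower and 15.7% in either direction among genes counted at 100 or more), and the median log2 fold change was -0.31. None passed the adjusted test, and each of the 14 overlapped between the groups in CPM. Their sum overlapped too, at 1869 to 2203 CPM in the DHEA libraries against 1862 to 2726 CPM (exact permutation test, p = 0.257). Sesame oil mouse 9 had the lowest sum of all libraries. Sdf2l1 had the lowest log2 fold change (-0.71 ± 0.21, standard error, edgeR adjusted p = 0.297) and Dnajb9 the highest (0.10, adjusted p = 0.663). Hspa5 had 230, 179, 160 and 226 CPM in DHEA mice 3, 4, 7 and 11 and 381, 193, 229 and 315 CPM in sesame oil mice 5, 9, 10 and 16 (-0.49 ± 0.16, adjusted p = 0.322). As for Dnajb1 and Hspb1, mice 5 and 16 were highest and mouse 7 lowest. The others at this threshold were Creld2 (-0.59), Manf (-0.48), Pdia6 (-0.43), Pdia4 (-0.37), Calr (-0.36), Hyou1 (-0.27) and Hsp90b1 (-0.22). Without mice 3 and 4, 9 of the 14 were lower at this threshold (3.89% of all genes in that fit), with a median of -0.34, -0.87 for Sdf2l1 and -0.54 for Hspa5. They were not all the same genes, since Pdia3 (unadjusted p = 0.0175 by edgeR) was then among them and Pdia4 (0.0549) was not.
Of 12 immediate early genes, which respond to neuronal activity, 5 were lower at an unadjusted p under 0.05 (41.7%, against 4.49% of all genes), with a median of -0.31. They were Egr2 (-0.86), Npas4 (-0.51), Egr1 (-0.50), Fos (-0.47) and Junb (-0.24), and the highest of the list was Ier2 (0.03). Without mice 3 and 4, 1 of the 12 was higher and 0 lower at this threshold (7.89% of all genes in either direction), and the median was -0.04. Of 10 corticosteroid-induced genes, 5 were higher (50%, against 4.82% of all genes), with a median of 0.31. They were Sult1a1 (0.52), Pdk4 (0.51), Ddit4 (0.33), Tsc22d3 (0.30) and Klf9 (0.14), and the lowest was Per1 (-0.12). Mouse 11 stood apart, with a list sum of 812 CPM against 603 to 619 CPM in the other DHEA libraries. The sesame oil sums were 569 to 644 CPM. Sult1a1 had 17.6 CPM in mouse 11 and 6.82 to 8.78 CPM in the other DHEA libraries. Pdk4, in contrast, was higher in every DHEA library than in any sesame oil library, as were 2.42% of all genes. Without mice 3 and 4, which leaves mice 7 and 11 for DHEA, the count was 6 (7.89% of all genes in either direction), with a median of 0.37. The smallest adjusted p of these 2 lists was 0.293 and 0.230 by edgeR.

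**Figure D5:**
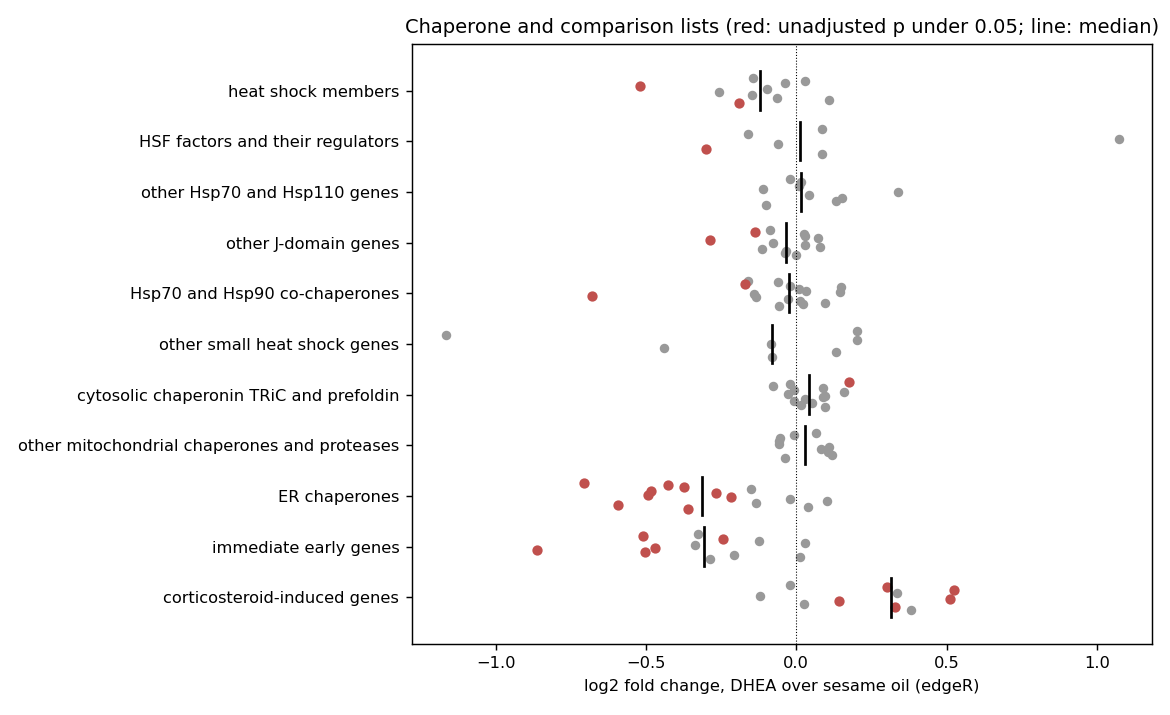
Log2 fold change of DHEA over sesame oil (x axis) of each gene in the chaperone lists and 3 comparison lists (rows), with an unadjusted edgeR p under 0.05 in red, other genes in grey and the list median as a black line. The medians lie near 0 for the other cytosolic and mitochondrial chaperones and at -0.31 for the ER chaperones.

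Markers of other cell types also differed between the groups. The 6 oligodendrocyte markers summed to 6163, 7802, 6087 and 6283 CPM in DHEA mice 3, 4, 7 and 11 and to 4933, 5931, 4909 and 4159 CPM in sesame oil mice 5, 9, 10 and 16, led by Mbp. All 6 had an unadjusted p under 0.05 and were higher in the DHEA libraries (4.82% of all genes were). Each of the 6 overlapped between the groups in CPM, and only their sum did not (exact permutation p = 0.0286, as small as this design can give). Without mice 3 and 4, 5 of the 6 were higher at an unadjusted p under 0.05, against 7.89% of all genes in either direction. The 4 precursor markers, led by Olig1, summed to 209 to 238 CPM against 185 to 204 CPM, also without overlap, and 2 had an unadjusted p under 0.05. Among astrocyte markers, led by Slc1a2, 4 of 6 were higher at that threshold, among endothelial markers, led by Flt1, 3 of 6, and among mural cell markers, led by Rgs5, 1 of 6. Without mice 3 and 4 these counts were smaller, with 1 precursor, 1 astrocyte, 2 endothelial and 0 mural cell markers higher, and 1 endothelial marker lower. The neuronal sum, led by Snap25, was 4979 to 5417 CPM against 5000 to 5572 CPM, with 1 of 6 lower at that threshold (4.49% of all genes were). The hippocampal sum, led by Zbtb20, was 996 to 1035 CPM against 994 to 1191 CPM. Of its 6 markers, 1 was higher at that threshold (Spink8, log2 fold change 0.32) and 0 were lower. Without mice 3 and 4, 2 of 6 neuronal and 2 of 6 hippocampal markers were lower (33.3% each, against 3.89% of all genes).
Tissue next to the hippocampus also varied. Choroid plexus markers, led by Ttr, summed to 92.0 CPM in mouse 4 and to 4437 CPM in mouse 3, with 506 to 3101 CPM in the sesame oil libraries. Thalamus markers, led by Rora, summed to 118 to 149 CPM against 116 to 131 CPM, and red blood cell markers, led by Hbb-bs, to 45.7 to 159 CPM against 52.5 to 137 CPM. Anterior pituitary markers, led by Prl, summed to 1.85 to 3.37 CPM in the DHEA libraries. In sesame oil mice 5, 9, 10 and 16 the sums were 3.53, 6.91, 30.1 and 3.62 CPM. The groups did not overlap (exact permutation test, p = 0.0286), but mice 5 and 16 were close to the highest DHEA library. At an unadjusted p under 0.05, 3 of 6 were lower (50%, against 4.49% of all genes). The count was also 3 without mice 3 and 4 (3.89% of all genes in that fit). Cga had no more than 3 counts in any library. Mice 3 and 4, which were alike in Hsp90aa1 and Hspe1, were thus at the opposite ends for the choroid plexus.
Counts of the 13 mitochondrially encoded genes made up 7.87%, 9.34%, 7.58% and 7.29% of all counts in DHEA mice 3, 4, 7 and 11 and 6.37%, 6.87%, 7.23% and 6.99% in mice 5, 9, 10 and 16, again without overlap. The correlation of a gene's GC content with its deviation in a library was -0.113 to -0.00445 in the DHEA libraries and 0.0558 to 0.136 in the sesame oil libraries. After a correction for that trend, 0 of the 10 heat shock genes had an unadjusted p under 0.05, against 8.54% of all genes. Dnajb1 was then at -0.18 (unadjusted p = 0.0608, adjusted p = 0.598 by edgeR) and Hspb1 at -0.47 (unadjusted p = 0.0759, adjusted p = 0.625). The part that cell type makeup and the mitochondrial share have in the values of the heat shock genes was not tested.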

How the data were processed

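RNA was extracted with TRIzol, and libraries were made from polyA RNA and sequenced as paired-end reads. Per the submitters' processing notes, fastp, HISAT2, HTSeq and the build GRCm39 were used (versions not given in the sources used here). Raw read counts of each gene were deposited by the authors, with FPKM derived from those counts. The counting rule for strand and for multiply mapped reads is not given in the sources used here, so counts of genes that share sequence are uncertain. The 10 genes and all gene lists were chosen with earlier results of these data known.

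Counts were normalized by TMM and tested with edgeR 4.0.16 (R 4.3.3) by the quasi-likelihood test over all genes with at least 1 count, without covariates, as the labels give none. P-values were adjusted over all 27612 genes by the Benjamini-Hochberg method. CPM are TMM-normalized, standard errors are the log2 fold change over the root of F, and 95% intervals use the t distribution of that fit. For single CPM values the exact permutation test (two-sided) ran over all 70 allocations. Per the methods the mice were housed in groups, with littermates as controls, but cage and litter of each library are not given, so the p-values measure only the spread between these mice. Named were the 10 genes, the extreme genes of each list and those with an unadjusted p under 0.05, the 5 genes most like Dnajb1 and Hspd1, and the most abundant gene of each cell type list, of which 1 list is not reported here. Hspa5 values by library and the other genes that describe single libraries were chosen after their values were seen. Alternatives were RLE and upper-quartile normalization, DESeq2 1.42.0, at least 10 counts, filterByExpr, robust moderation, limma-trend (limma 3.58.1) on log2(FPKM + 1) and log2(FPKM + 0.1), Hspa1a and Hspa1b summed, leaving out each library, and leaving out mice 3 and 4. A GC correction (lowess, span 0.3, GENCODE vM21 transcripts, with a GC value for 92.7% of genes averaging 10 counts or more) and the refit of the lists without mice 3 and 4 were added after the data were seen. Shared stretches of 150 bases were found in the same transcripts. The reference is GRCm38.p6 and the counts are on GRCm39, so its coordinates are given for promoters only and were not converted. The edgeR fit was also run on simulated counts, with 200 genes of a mean count of at least 50 changed 2-fold. At an adjusted p under 0.05 it recovered 94% of them and also called 56 unchanged genes, among 26692 genes tested.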

Additional observations from a re-analysis of the deposited data

Results flagged for a closer look

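Among 22 groups of 4 libraries examined, 1 held a library far from its own group: Hspb1 in the DHEA libraries. Mouse 7 had 1.91 CPM (69 counts) where mice 3, 4 and 11 had 3.59 to 3.73 CPM. The gap to the nearest library was 0.920 of the whole range of the group, above Dixon's critical value for 4 libraries. Chance flags about 5% of groups, or 1.1 of the 22. Mouse 7 was also the lowest library for Dnajb1 (35.4 CPM).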

How the results depend on the processing

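No member reached an adjusted p under 0.05 under any of the alternatives run, and the smallest adjusted p was 0.319 (Hspb1, DESeq2). Of 189 values of single genes under the alternatives, 155 kept their direction and their side of an unadjusted p of 0.05, 16 lost it, 10 gained it and 8 turned sign. Hspe1 turned sign in limma-trend, with 1 or 0.1 added to the FPKM (-0.0082 or -0.0085), without mouse 3 (-0.016), without mouse 4 (-0.036), without both (-0.13) and with the GC correction (-0.0073). Leaving out 1 library at a time, Hspe1 ran from -0.036 to 0.11 and Hspd1 from -0.091 to 0.020, its sign turning without mouse 11. Hsp90aa1 turned sign without mice 3 and 4 (-0.088). Where no value shows it, the cause was not tested. The number of the 10 genes at an unadjusted p under 0.05 was 2 in the comparison as reported. It was 1 with DESeq2 and with 0.1 added to the FPKM. It was 0 with a minimum of 10 counts, with filterByExpr, with 1 added to the FPKM and with the GC correction. It was 6 without mice 3 and 4, and 0 to 4 without 1 library. Of all genes, 2267 of 27595 met this threshold with DESeq2 and 2310 of 21662 with a minimum of 10 counts. With filterByExpr 2106 of 16861 did, and in limma-trend 2604 or 2605 of 27612 with 1 or 0.1 added to the FPKM. Over all genes, the adjusted test called 0, but 153 with DESeq2, 4 with robust moderation, 1 without mice 3 and 4, and 0 to 93 without 1 library (93 without mouse 7). The study's call rule gave 442 genes, 221 higher and 221 lower, 389 without mice 3 and 4 (283 higher and 106 lower), but 164 with DESeq2 (68 higher and 96 lower), 284 with a minimum of 10 counts, 62 with filterByExpr, and 1 or 48 in limma-trend with 1 or 0.1 added to the FPKM. Hspb1, Hspa1a and Hspa1b, at 69 to 399 counts per library, had the fewest counts and so the least precision from depth. No paired analysis was possible because the cage and litter of each library are not given.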
